A study of Mus musculus with 4 samples.

Results

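Protein phosphatase 1 (PP1) was examined through 10 of its genes, which encode its 3 catalytic subunits and 7 of the proteins that steer or restrain them. Rows of the deposited transcript table were taken when their symbol was *Ppp1ca*, *Ppp1cb*, *Ppp1cc*, *Ppp1r12a*, *Ppp1r12b*, *Ppp1r12c*, *Ppp1r2*, *Ppp1r7*, *Ppp1r8* or *Ppp1r10*. All 10 genes were found, with 17 tested transcripts out of 34200 in the table. GENCODE M21 annotates 70 transcripts for these genes, and the other ones were not tested. The genes were chosen from the same comparison that is described here, because *Ppp1cb* fell in it, so the effects and calls of the members are a description and carry no test.

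The libraries came from NIH/3T3 cells, an immortalised line of mouse fibroblasts. KD cells received 2 siRNAs against *Setd2* together at 10 nM, WT cells received Scrambled siRNA, and polyadenylated RNA was taken 48 h after transfection from both. All cells were thus transfected, the knockdown was transient, and each group held 2 libraries. SETD2 is the methyltransferase that places H3K36me3 on the bodies of transcribed genes.

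*Setd2* itself fell from 3680 to 923 normalised estimated counts, a log2(fold change) of -1.99 (SE 0.09, n = 2 and 2), as the labels of the groups say. In bulk RNA, fewer cells that express a gene and less of its RNA per cell cannot be told apart. All 10 fibroblast markers were in the table, led by *Col1a2* and *Fn1* in WT, with a summed level of 1360800 in WT and 1221180 in KD. They did not move together, since *Col1a2* went from 346235 to 215502 and *Fn1* from 276425 to 388093. The markers of epithelial, blood, endothelial and muscle cells summed to between 57.3 and 432 in WT and between 84.1 and 468 in KD, and *Epcam*, *Krt18*, *Cd3e*, *Myod1* and *Myog* had no tested transcript.

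PP1 removes phosphate from serine and threonine in a large share of the cell's phosphoproteins. Its catalytic subunits are closely similar enzymes that have little choice of substrate alone. Partners that dock on them through short motifs bring them to myosin, chromatin, RNA polymerase or the mitotic apparatus, or hold them inactive. In fibroblasts the best known holoenzyme is myosin phosphatase, in which the catalytic subunit encoded by *Ppp1cb* sits on a MYPT subunit encoded by a *Ppp1r12* gene and opposes the kinases that make stress fibres contract.

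The catalytic genes are related in sequence but far enough apart for reads to tell them from each other. Aligned coding sequences were identical at 73.6% of positions for *Ppp1ca* and *Ppp1cb*, at 76.9% for *Ppp1ca* and *Ppp1cc* and at 73.4% for *Ppp1cb* and *Ppp1cc*. Of the words of 31 bases in them, *Ppp1ca* and *Ppp1cc* share 14 and *Ppp1cb* shares none with either. The last 60 coding bases of each catalytic transcript are shown 5′ to 3′ from GENCODE M21 (GRCm38, plus strand), with the stop codon in capitals. The *Ppp1cc* transcripts end differently. *Ppp1cc-201*, the γ2 form known from testis, splices from the end of its seventh exon to a further exon. *Ppp1cc-202*, the widely expressed γ1 form, reads on past that splice site, and its seventh exon is its last.
Ppp1ca-201, chr19:4195033-4195092: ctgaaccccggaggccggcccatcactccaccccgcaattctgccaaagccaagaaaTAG
Ppp1cb-201, chr5:32490999-32491058: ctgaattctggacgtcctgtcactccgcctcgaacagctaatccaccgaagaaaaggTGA
Ppp1cc-202, chr5:122174085-122174144: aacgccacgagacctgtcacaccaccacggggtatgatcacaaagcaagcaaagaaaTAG
Ppp1cc-201, chr5:122174991-122175050: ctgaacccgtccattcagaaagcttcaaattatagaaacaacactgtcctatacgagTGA

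Of the differences between tested isoforms of *Ppp1r12a*, *Ppp1r2* and *Ppp1r8*, the ones shown here are an exon, a 3′ end and a codon, in that order. In *Ppp1r12a*, an exon of 31 bases at chr10:108273395-108273425 is present in *Ppp1r12a-201* and skipped in *Ppp1r12a-205*. Because 31 is not a multiple of 3, the exon shifts the reading frame, and it is known for removing the leucine zipper from the end of MYPT1. It is in capitals here, followed by the junction that forms without it.
Ppp1r12a-201: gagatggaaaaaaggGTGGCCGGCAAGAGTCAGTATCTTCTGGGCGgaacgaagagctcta
Ppp1r12a-205: gagatggaaaaaagggaacgaagagctcta

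In *Ppp1r2*, on the minus strand of chromosome 16, *Ppp1r2-201* splices the fifth exon to a distal last exon that holds a 3′ UTR of 3150 bases. *Ppp1r2-202* does not splice there and ends within the following intron at 31257975. The bases after the shared splice site are in capitals, and in the second sequence they begin with the GT of an unused splice donor.
Ppp1r2-201: aagagtcaagtcaagGATCTACTACAAGTG
Ppp1r2-202: aagagtcaagtcaagGTCAGGTGCCTTAAC

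In *Ppp1r8*, on the minus strand of chromosome 4, the last exon starts at either of a pair of acceptors that lie 3 bases apart, and the extra codon is in capitals.
Ppp1r8-201: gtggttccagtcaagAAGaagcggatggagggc
Ppp1r8-202: gtggttccagtcaagaagcggatggagggc

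Levels are normalised estimated counts, computed for each group from the deposited mean and effect. Values of single libraries were not analysed here, so each group has 1 level, and the spread between its libraries is given as the within-group SD on the log2 scale. The deposited variances also fix whether the libraries of the groups could overlap. A transcript was called when the q-value of the deposited likelihood ratio test was under 0.05. Of the 17 transcripts 4 were called, beside 12.5% of all transcripts in the table. Called higher in KD were 2 of them, beside 7.26% of all transcripts, and called lower were also 2, beside 5.21%. By the gene-level q-value, which has no direction, 5 of the 10 genes were called, beside 24% of all genes. The 4 called transcripts were *Ppp1ca-201*, *Ppp1cb-201*, *Ppp1cc-202* and *Ppp1r2-201*, and *Ppp1r8* was the gene called at the gene level alone.

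**Figure D1:**
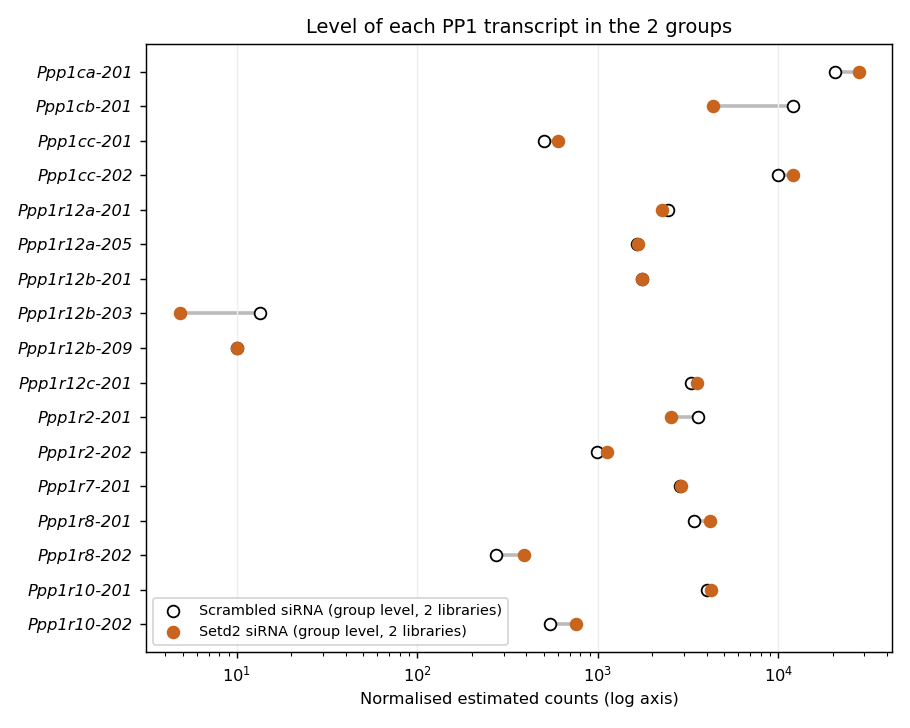
Level of the 17 tested PP1 transcripts in normalised estimated counts on a log axis, with an open circle for Scrambled siRNA and a filled circle for *Setd2* siRNA, each the level of a group of 2 libraries. The wide gap at high level is that of *Ppp1cb-201*, from 12125 to 4345, and the wide gap at the far left is that of *Ppp1r12b-203*, from 13.5 to 4.80.

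*Ppp1cb* encodes the β catalytic subunit, also known as PP1δ, the one that myosin phosphatase uses. Its tested transcript, *Ppp1cb-201* (ENSMUST00000015100.14), spans chr5:32458843-32495523 on the plus strand, with 8 exons, 984 coding bases and a 3′ UTR of 4465 bases. The level was 12125 in WT and 4345 in KD. The within-group SD was 0.10, and the libraries of the groups did not overlap. The log2(fold change) was -1.48 (SE 0.10, n = 2 and 2), with a 95% interval by the normal quantile from -1.68 to -1.28. The transcript fell by 64.2%. Its difference was 14.7 times its within-group SD. Among the 18808 transcripts of the table with a mean of at least 100, 131 had a log2(fold change) as low or lower, which is 0.697% of them.

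The other catalytic genes went the opposite way and by less. *Ppp1ca* encodes the α subunit, and its tested transcript, *Ppp1ca-201* (ENSMUST00000046094.4), lies at chr19:4192065-4195420 on the plus strand. Its level was 20742 in WT and 27821 in KD. The groups did not overlap, and the transcript rose by 0.42 on the log2 scale (SE 0.08), or 34.1%. *Ppp1cc-202* (ENSMUST00000102528.10), at chr5:122158278-122175273, had 9898 in WT and 12033 in KD. It rose by 0.28 on the log2 scale (SE 0.08), again without overlap of the groups. The γ2 form *Ppp1cc-201* was at 500.4 in WT and 602 in KD, with a log2(fold change) of 0.27 (SE 0.31) and a 95% interval from -0.33 to 0.87, and it was not called.

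The γ1 form made up 95.2% of the summed *Ppp1cc* level in both groups. The γ2 form has only 29 words of 31 bases that are in no other tested transcript of these genes, out of 1412, so its level rests on few reads that are its own. Much of *Ppp1cc* is also shared with *Ppp1ccb*, a transcribed processed pseudogene on chromosome 7, which holds 1392 words of each *Ppp1cc* form, 98.6% of those of *Ppp1cc-201* and 59.1% of those of *Ppp1cc-202*. *Ppp1ccb-201* was at 2637 in WT and 3603 in KD, with a log2(fold change) of 0.45 (SE 0.25), and was not called. How reads were divided between *Ppp1cc* and *Ppp1ccb* is therefore uncertain, but their sum, 13224 in WT and 16378 in KD, had a log2(fold change) of 0.31, against 0.28 for *Ppp1cc* alone.

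*Ppp1ca* shares its 3′ end with the gene *Rad9a*, which lies on the opposite strand and covers 195 of the 1443 words of *Ppp1ca-201*. *Rad9a-201* was called higher too, at 3506 in WT and 4830 in KD, and the strand setting of the quantification is not given in the sources used here. *Ppp1cb-201* shares no word with the other catalytic genes and 0.759% of its words with any other tested gene.

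Levels of different genes were compared after division by transcript length. In WT, *Ppp1ca* had 14082 normalised estimated counts per kb, *Ppp1cc* 4499 and *Ppp1cb* 2034. In KD they had 18887, 5465 and 729. The order of the catalytic genes was the same in both groups, and each step between them was larger than the summed within-group SDs of the neighbours. The SD of a gene was that of its most abundant transcript. The ratio of *Ppp1ca* to *Ppp1cb* went from 6.92 to 25.9 and that of *Ppp1cc* to *Ppp1cb* from 2.21 to 7.50, while that of *Ppp1ca* to *Ppp1cc* was 3.13 in WT and 3.46 in KD. Of the summed catalytic level per kb, *Ppp1cb* held 9.87% in WT and 2.91% in KD. *Ppp1ca* held 68.3% and 75.3%, and *Ppp1cc* held 21.8% in both. The sum of the 3 genes per kb was 20614 in WT and 25081 in KD, which is 21.7% higher. Counted without division by length, where the long *Ppp1cb-201* weighs more, its share was 28.0% in WT and 9.70% in KD, and the sum was 3.55% higher in KD.

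**Figure D2:**
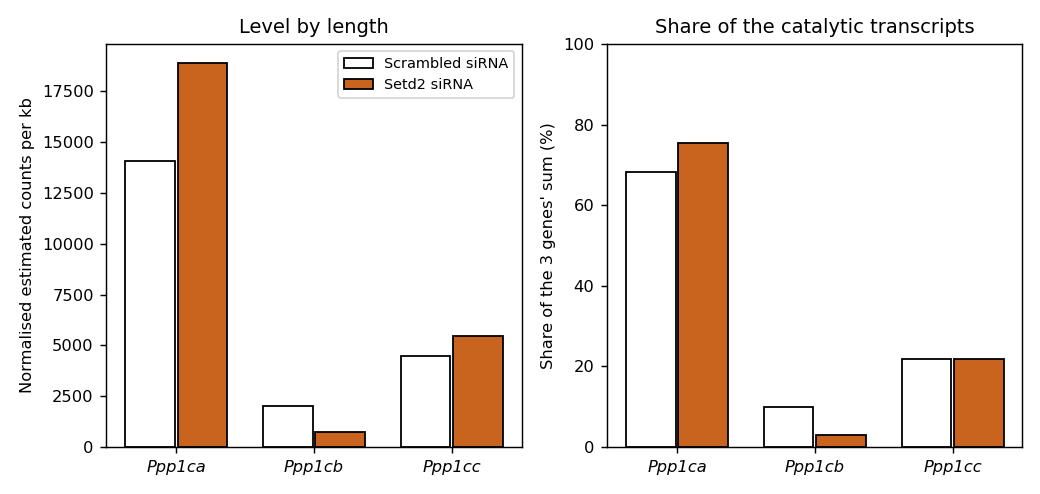
Left, level of the 3 catalytic genes in normalised estimated counts per kb, summed over their tested transcripts, as bars from 0 for Scrambled siRNA (white) and *Setd2* siRNA (orange). Right, the share of each gene in the sum of the 3, where *Ppp1cb* goes from 9.87% to 2.91%. Each bar is the level of 1 group of 2 libraries and has no error bar.

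Effects in this table moved with GC content, and the catalytic genes lie at different ends of that range. The GC content was 56.1% for *Ppp1ca-201*, 48.7% for *Ppp1cc-202* and 40.8% for *Ppp1cb-201*. The median log2(fold change) of transcripts of like GC content was 0.19 for *Ppp1ca-201*, 0.02 for *Ppp1cc-202* and -0.21 for *Ppp1cb-201*. Relative to these medians, *Ppp1cb-201* was at -1.27, *Ppp1cc-202* at 0.26 and *Ppp1ca-201* at 0.23, and all 3 were still called by the Wald test with the deposited standard errors. The share of *Ppp1cb* in the catalytic sum per kb then went from 8.82% to 3.28%, and the sum of the 3 genes was 11.2% higher in KD.

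The 3 myosin phosphatase targeting genes showed no called transcript, and the 95% intervals of their main forms held 0. *Ppp1r12a* encodes MYPT1, the widely expressed scaffold that holds the β catalytic subunit on myosin. *Ppp1r12a-201*, with the 31-base exon, was at 2433 in WT and 2280 in KD, a log2(fold change) of -0.09 (SE 0.10). Its within-group SD of 0.04 was small enough that the groups did not overlap. *Ppp1r12a-205*, which lacks the exon and keeps the leucine zipper form, was at 1658 and 1677, a log2(fold change) of 0.02 (SE 0.12) with overlapping groups. The exon-skipping form made up 40.5% of the summed level in WT and 42.4% in KD. Only 283 of the 3373 words of *Ppp1r12a-201* and 235 of the 3325 of *Ppp1r12a-205* are not in the other form. The annotated starts and ends of the forms differ as well, so this split does not measure use of the exon alone.

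*Ppp1r12b* encodes MYPT2, the form known from heart, skeletal muscle and brain, and *Ppp1r12b-201* at chr1:134754658-134955940 on the minus strand held 98.7% of its level in WT. It was at 1751 in WT and 1750 in KD, with a 95% interval of the log2(fold change) from -0.19 to 0.18. *Ppp1r12b-209* was at 10.0 in both groups. *Ppp1r12b-203*, a short form of 3 exons, was at 13.5 and 4.80, and although its groups did not overlap its log2(fold change) of -1.40 had an SE of 0.93. *Ppp1r12c* encodes MBS85, the third member of the family. *Ppp1r12c-201* was at 3284 in WT and 3542 in KD, with a log2(fold change) of 0.11 (SE 0.08), and turned to -0.08 relative to transcripts of like GC content. It was called higher when only transcripts with a mean of at least 100 were adjusted for, a setting that called 34.2% of them.

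Per kb, *Ppp1r12a* was at 1209 in WT and 1170 in KD, *Ppp1r12c* at 1101 and 1187, and *Ppp1r12b* at 217 and 207. On this scale, *Ppp1r12c* had the widest difference of the 3 scaffolds, at 7.85%, and *Ppp1cb* per kb was above *Ppp1r12a* per kb in WT and below it in KD.

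**Figure D3:**
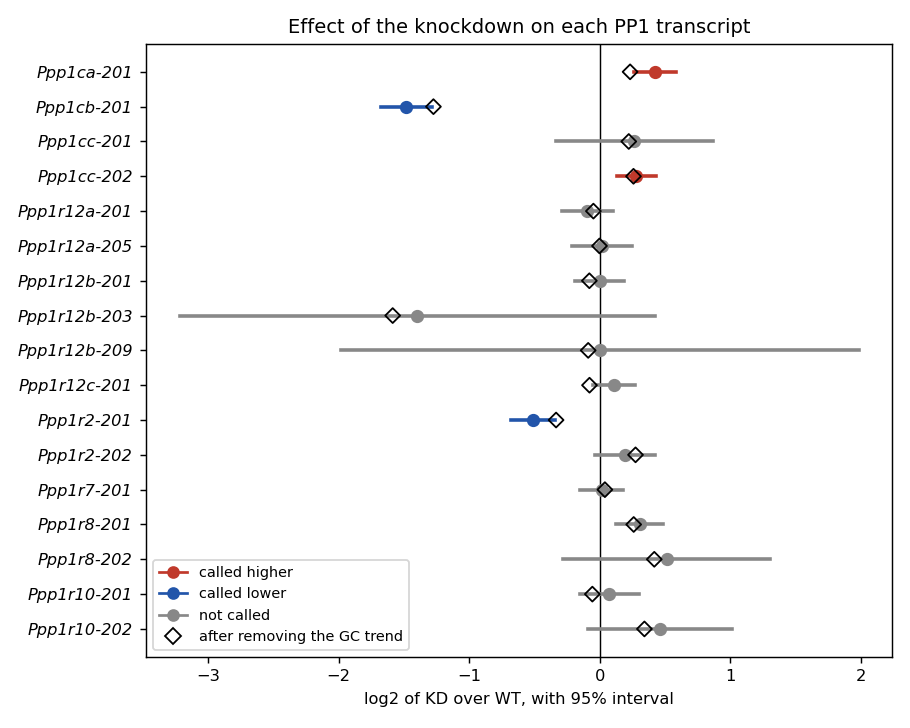
Log2(fold change) of KD over WT for each of the 17 PP1 transcripts, as a point with its 95% interval, red for called higher, blue for called lower and grey for not called. Open diamonds give the effect after removing the median effect of transcripts of like GC content, which is -1.27 for *Ppp1cb-201* and 0.23 for *Ppp1ca-201*.

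*Ppp1r2* encodes inhibitor-2, a small protein that binds the catalytic subunit and blocks it, and its isoforms had effects of opposite sign. *Ppp1r2-201* (ENSMUST00000060188.13), at chr16:31251537-31275277 on the minus strand with the long 3′ UTR, was at 3606 in WT and 2536 in KD. The groups did not overlap, its within-group SD was 0.05, and it fell by 0.51 on the log2 scale (SE 0.09), and its level fell by 29.7%. *Ppp1r2-202*, which ends in the intron, was at 983 in WT and 1124 in KD. Its groups did not overlap either, but its log2(fold change) of 0.19 (SE 0.12) was not called, and the difference between the isoforms was not tested. Summed over both, the gene was at 4590 in WT and 3659 in KD, a log2(fold change) of -0.33. The intronic form went from 21.4% to 30.7% of that sum, in which the longer *Ppp1r2-201* weighs more. After division by length, the gene differed less, at 1911 per kb in WT and 1795 in KD. On that scale the intronic form went from 53.7% to 65.4%. The GC content of both forms is low, at 42.03% and 45.0%, and relative to transcripts of like GC content their log2(fold change) was -0.33 and 0.27. Other annotated genes, led by processed copies of *Ppp1r2*, share 416 of the 928 words of *Ppp1r2-202*, but none of them had a tested transcript.

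*Ppp1r7* encodes SDS22, a leucine-rich repeat protein that chaperones newly made catalytic subunits and holds them inactive. *Ppp1r7-201*, at chr1:93342854-93373489, was at 2856 in WT and 2888 in KD. Its groups overlapped, and the 95% interval of its log2(fold change) ran from -0.15 to 0.18.

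The nuclear subunits had no transcript called by the likelihood ratio test. *Ppp1r8* encodes NIPP1, which holds the catalytic subunit at spliceosomal and chromatin proteins. *Ppp1r8-201*, at chr4:132826929-132843169 on the minus strand, was at 3392 in WT and 4193 in KD, a log2(fold change) of 0.31 (SE 0.09) with no overlap of the groups. It lay just past the limit of the likelihood ratio test, with a q-value of 0.0587, and was called by the deposited Wald test, which called 5 of the 17 transcripts beside 18.2% of all transcripts. *Ppp1r8-202*, without the extra codon, was at 271 and 387, with a log2(fold change) of 0.51 (SE 0.41), and held 7.41% of the gene's level in WT and 8.45% in KD. With 24 words of its own out of 1060, its level cannot be told well from that of *Ppp1r8-201*.

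*Ppp1r10* encodes PNUTS, the subunit that brings PP1 to elongating and terminating RNA polymerase II. *Ppp1r10-201*, at chr17:35917196-35932281, was at 4000 in WT and 4210 in KD, a log2(fold change) of 0.07 (SE 0.12) with overlapping groups. *Ppp1r10-202*, which starts further upstream and has 20 exons against 19, was at 545 and 752, a log2(fold change) of 0.46 (SE 0.28) without overlap. Its share of the gene was 12.0% in WT and 15.2% in KD. Only 1 word of *Ppp1r10-201* and 34 of *Ppp1r10-202* are not in the other form, and the split between them is thus uncertain.

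**Figure D4:**
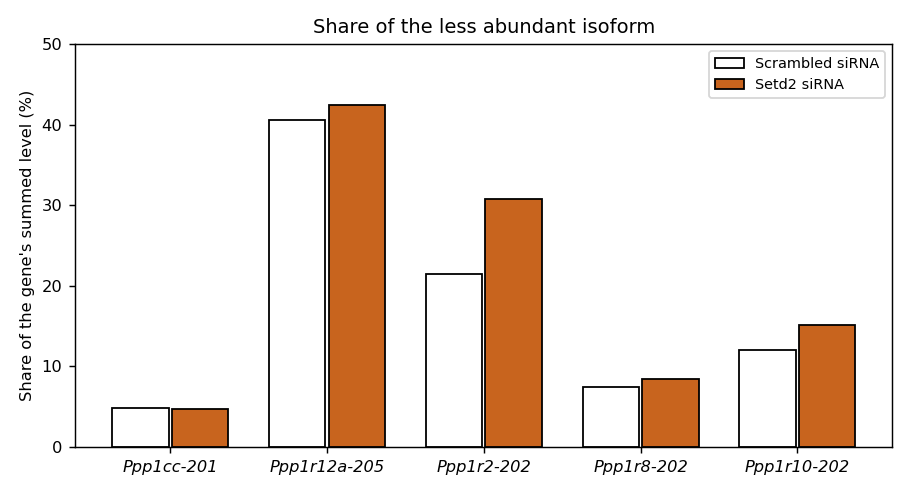
Share, in per cent, of the less abundant isoform in the summed level of its gene, by counts not divided by length. Shown are the 5 PP1 genes in which that isoform is above 100 normalised estimated counts in both groups, as bars from 0 for Scrambled siRNA (white) and *Setd2* siRNA (orange). The share of *Ppp1r2-202* goes from 21.4% to 30.7%, and the other 4 differ by at most 3.16 percentage points. After division by length, *Ppp1r2-202* held 53.7% in WT and 65.4% in KD.

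Over the 10 genes, 6 summed levels were higher and 4 lower in KD, with a median log2(fold change) of 0.06 beside -0.03 over all genes. Over the 17 transcripts the median was 0.07, beside -0.01 over all transcripts and 0.05 over those with a mean of at least 100, to which 15 of the 17 belong. The libraries of the groups could not overlap for 10 of the 17 transcripts, beside 54.8% of all transcripts. They had to overlap for 5, and the deposited variances left 2 undetermined. Ranked per kb in WT, *Ppp1cb* was the third of the 10 genes, and its neighbour *Ppp1r8* was not beyond the spread between libraries. In KD it was the eighth, between *Ppp1r12a* at 1170 and *Ppp1r7* at 280, and both steps were beyond the spread. The level per kb of *Ppp1r7* rests on the annotated 10315 bases of *Ppp1r7-201*, of which 8423 are 3′ UTR. The spread does not cover an error in that length. *Ppp1r8* and *Ppp1r2* in WT, *Ppp1r12c* and *Ppp1r10* in both groups, and *Ppp1r10* and *Ppp1r12a* in KD were the other neighbours that did not differ beyond the spread. This spread uses the SD of each gene's most abundant transcript. For *Ppp1r12a* that SD was 0.04, but *Ppp1r12a-205* had 0.12. The step from *Ppp1r12a* to *Ppp1r12c* in WT, 0.135 on the log2 scale, is therefore uncertain.

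A wider list of 68 genes around PP1 was read in the same table, in 12 groups set by what the proteins do. Of these, 58 were tested, with 104 transcripts. A higher transcript was called in 12 genes, beside 10.1% of all genes, and a lower transcript in 6, beside 7.43%. The other 40 tested genes had no called transcript. Of the 24 called transcripts in these genes, 16 were still called by the Wald test relative to transcripts of like GC content. Summed over its tested transcripts, a gene of the list had a median log2(fold change) of 0.12, beside -0.03 over all genes. Of the 58 genes, 44 had a transcript with a mean of at least 100, and over all such transcripts in the table the median was 0.05.

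The other catalytic subunits of the same enzyme superfamily held 5 called genes among 8, beside 17.4% of all genes with a called transcript. No group of the list has more than 10 genes, and nothing is read from the counts within groups. *Ppp2cb*, *Ppp4c*, *Ppp5c* and *Ppp3ca*, a calcineurin catalytic gene, had a higher transcript. *Ppp3ca-202* rose most, from 3706 to 5277, which is 0.51 on the log2 scale (SE 0.08). *Ppp3cb*, the other widely expressed calcineurin catalytic gene, had lower transcripts, and *Ppp3cb-201* fell by 0.66 on the log2 scale (SE 0.14), from 1406 to 888. Relative to transcripts of like GC content, *Ppp3ca-202* was at 0.62, *Ppp3cb-201* at -0.46 and *Ppp5c-201* at 0.24, and these were still called. *Ppp2cb-201*, at 0.22, *Ppp4c-201*, at 0.20, and the other called *Ppp3cb* transcripts, at -0.23 and -0.04, were not.

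Around myosin phosphatase, 2 of 10 genes had a called transcript, beside 17.4% of all genes, and both were higher. *Dapk3*, a kinase that phosphorylates MYPT1, was one of them, and *Dapk3-202* rose from 1580 to 1964, or by 0.31 on the log2 scale (SE 0.10), but was at 0.13 and not called relative to transcripts of like GC content. *Mylk*, the myosin light chain kinase, had no called transcript. Among the myosin chains, 2 of 6 tested genes had a lower transcript, beside 7.43% of all genes. None had a called higher one, beside 10.1% of all genes. *Myl6-206*, an essential light chain transcript, fell most, from 13574 to 7777, which is 0.80 lower on the log2 scale (SE 0.08), while *Myl6-201* was at 19828 and 22942 and was not called. *Myh10* was the other one. Uncalled transcripts of the group had effects of both signs. *Myh9-201* went from 23632 to 29861, or 0.34 on the log2 scale (SE 0.10), with a likelihood ratio q-value of 0.0535. Relative to transcripts of like GC content *Myh9-201* was at 0.16. *Myl12a* and *Myl12b*, the regulatory light chains that myosin phosphatase acts on, had no called transcript. *Myl12a-208*, at 1114 and 2325, and *Myl12a-201*, at 1147 and 732, went opposite ways.

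The inhibitors held 2 higher genes of 7 tested, *Ppp1r37* and *Ppp1r14b*, beside 10.1% of all genes with a higher transcript. However, *Ppp1r37-201* went from 0.35 to 0.17 and lost its call relative to transcripts of like GC content. *Ppp1r14b-201*, which encodes PHI-1, a myosin phosphatase inhibitor, rose by 0.55 on the log2 scale (SE 0.09), from 6015 to 8810. Of the subunits that dephosphorylate eIF2α, *Ppp1r15a*, or GADD34, the stress-induced one, had the transcript *Ppp1r15a-201* at 3670 in WT and 7314 in KD. It rose by 0.99 on the log2 scale (SE 0.10), whereas *Ppp1r15a-202* was at 3107 and 3181. *Ppp1r15b*, the constitutive partner, was at 7594 and 8539 and was not called.

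PNUTS works in the nucleus with WDR82 and TOX4. *Wdr82-201* rose from 3701 to 4978, or by 0.43 on the log2 scale (SE 0.08), and *Tox4-201* was at 1496 and 1162, a log2(fold change) of -0.36 (SE 0.11) that was not called. In the SHOC2 phosphatase, in which PP1 acts on RAF kinases, both tested *Mras* transcripts rose, and *Mras-203* rose most, from 339 to 586, or 0.79 on the log2 scale (SE 0.18). Neither *Shoc2* transcript was called, and *Shoc2-201* was at 4111 and 3831.

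The nuclear and mitotic targeting group had 2 lower genes of 5 tested, beside 7.43% of all genes with a lower transcript. *Mki67-201*, the proliferation marker that recruits PP1γ to mitotic chromosomes, fell by 0.35 on the log2 scale (SE 0.08), from 8979 to 7032, and *Knl1*, the kinetochore scaffold that docks PP1, was the other one, although *Knl1-202* turned from -0.31 to 0.08 on the log2 scale relative to transcripts of like GC content. Of the 7 actin and cytoskeleton genes, *Phactr1* was lower, with *Phactr1-206* at 636 and 413, and *Ppp1r18* higher, beside 17.4% of all genes with a called transcript. However, *Ppp1r18-202* went from 0.39 to 0.19 and lost its call relative to transcripts of like GC content. The gene's largest rise, in *Ppp1r18-204*, was from a level of 0 in WT to 204 in KD, so no fold is given, and *Ppp1r18-201* went the other way, from 394 to 15.6, without a call.

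No called transcript was found among 3 glycogen-targeting genes, 2 ASPP genes and 4 other regulatory genes that were tested, beside 17.4% of all genes. *Ppp1r13l*, or iASPP, was at 662 and 824 and *Ppp1r13b*, or ASPP1, at 514 and 477. *Ppp1r21* was at 1701 and 1676, and *Ppp1r32*, *Ppp1r36* and *Ppp1r42* were below 60 in both groups. *Ppp1r3a*, *Ppp1r3b*, *Ppp1r3c*, *Ppp1r3g*, *Ppp1r1a*, *Ppp1r1c*, *Ppp1r14a*, *Ppp1r26*, *Tp53bp2* and *Myl9* had no tested transcript.

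**Figure D5:**
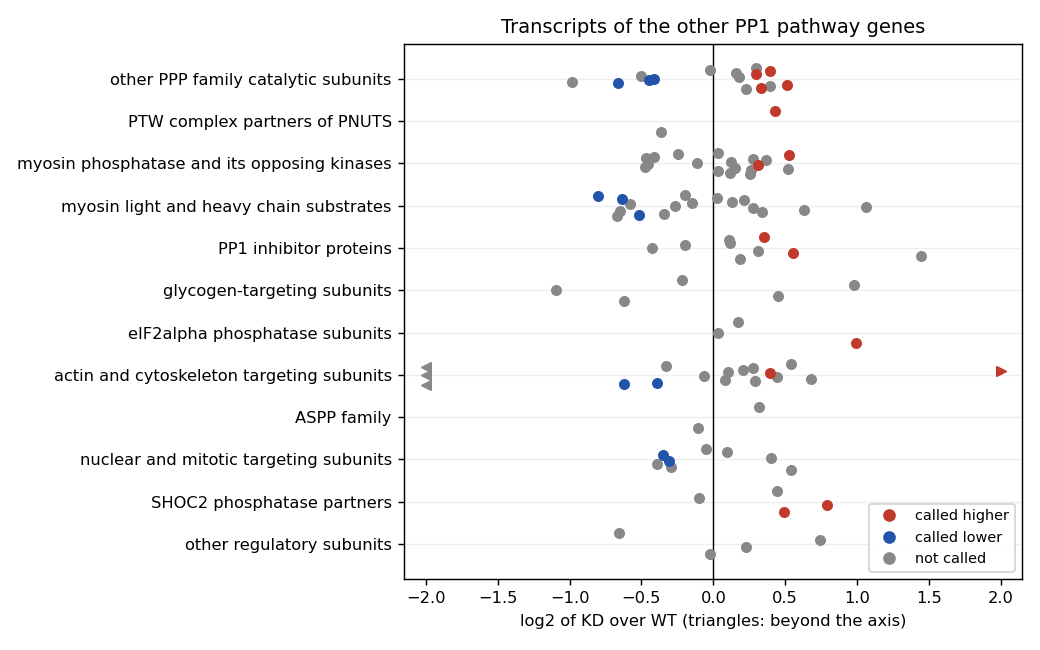
Log2(fold change) of KD over WT for the 104 tested transcripts of the other PP1 pathway genes, 1 point a transcript, by group, red for called higher, blue for called lower and grey for not called. Triangles mark 4 transcripts beyond the axis. Called transcripts of both signs stand in the catalytic and the actin groups, and the myosin chains and the nuclear and mitotic group hold called transcripts below 0 only.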

How the data were processed

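RNA-seq of 2 KD and 2 WT (Scrambled siRNA) libraries was the experiment analysed, grouped by the *Setd2* label. The authors prepared stranded libraries from polyadenylated RNA, quantified transcripts with Kallisto and compared the groups with Sleuth without covariates. The index, the strand setting and the filter on low counts are not given in the sources used here. The deposited effects, standard errors, means and variances are on the natural log scale, and the authors made them with Sleuth after scaling the estimated counts of each library and adding 0.5. The deposited score is the likelihood ratio statistic, and the deposited p-values and q-values come from 2 tests that the authors ran over all transcripts, a likelihood ratio and a Wald test, with combined values for genes. No test was run on single libraries, the depth is unknown and no counting interval is given. The methods describe triplicate transfections but do not say whether the 2 libraries of a group came from separate ones, so the errors may be technical.

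Effects and standard errors were divided by the natural log of 2. A group's level is the exponential of the mean plus or minus 0.5 times the effect, minus 0.5, and levels were summed over a gene's tested transcripts. The residual sum of squares is 3 times the variance over the 4 libraries minus the squared effect. Groups cannot overlap where the effect exceeds its square root, and must overlap where the effect is under the square root of its value over 2.

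As alternatives, calls were taken from the Wald test, from limma 3.58.1 (squeezed residual variances, 2 residual degrees of freedom, tested on simulated data), from transcripts with a mean of at least 100, and after subtraction of the median effect of transcripts of like GC content (50 classes). Calls after that subtraction used the Wald test with the deposited standard errors, not the likelihood ratio test. Transcript structures and sequences were read from GENCODE M21 (GRCm38), in which 17 of 17 member transcripts were matched, 16 with the same version and *Ppp1ca-201* by its identifier alone. Words of 31 bases were compared on both strands, and coding sequences were aligned globally with Biopython 1.88. The members and the gene lists were chosen with earlier results of these data known. Named are all 10 genes with every tested transcript, *Setd2*, the called transcripts with the largest rise and fall in each list, and every gene of lists of 5 or fewer, except 1 result that is not reported here. *Ppp1ccb* and *Rad9a*, and other genes named without being in that rule, were chosen after their values were seen.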

Additional observations from a re-analysis of the deposited data

How the results depend on the processing

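No paired analysis was possible because the values of single libraries were not analysed here, and for the same reason no library could be left out. Of the 17 PP1 transcripts, 4 were called, 5 by the Wald test, 3 by limma (without *Ppp1cc-202*), 6 of the 15 whose mean was 100 or more (with *Ppp1r8-201* and *Ppp1r12c-201*), and 5 after removal of the GC trend. The shares of all transcripts were 12.5%, 18.2%, 9.68%, 34.2% and 15.6%. *Ppp1cb-201*, *Ppp1ca-201* and *Ppp1r2-201* were called under each of these. The count of called genes around PP1 was 18, against 28 by the Wald test and 28 of 44 with a mean of at least 100. It was 12 by limma and 24 after removal of the GC trend. The shares of all genes were 17.4%, 24.5%, 46.8%, 13.2% and 21.3% in that order. Calls after removal of the GC trend rest on the Wald test, so the like counts for them are those by the Wald test. Over the 10 genes, the summed levels had a median log2(fold change) of 0.06, against -0.0155 after removal of the GC trend. The share of *Ppp1cb* among the catalytic genes per kb changed by -6.96 percentage points, against -5.54 after removal of the GC trend, -18.3 without division by length and -6.15 with *Ppp1ccb* added to *Ppp1cc*. This share and its alternatives were chosen after seeing the data. Removal of the GC trend turned *Ppp1r12c-201* to -0.08 and *Ppp1r10-201* to -0.06, and neither was called with it. What the depth limits is unknown, and the SE of *Ppp1r12b-203*, at 13.5 in WT, was 0.93 on the log2 scale.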

Other observations

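The deposited likelihood ratio statistic was rebuilt from the deposited variances to within 2.8e-12. With the effect of a transcript set to 0 and its within-group variance kept, the rebuilt statistic still passed 3.84, the value for a p of 0.05, in 4634 of the 34200 transcripts, or 13.5%, and in 7 of the 17 PP1 transcripts. *Ppp1r7-201*, whose levels differed by 1.11%, had a statistic of 4.43, against 4.42 at an effect of 0. *Ppp1cb-201* had a statistic of 18.1, against 2.79 at an effect of 0. The other 3 called PP1 transcripts were among the 7, with 4.85 at an effect of 0 for *Ppp1ca-201*, whose statistic was 10.5, 5.39 for *Ppp1cc-202*, whose statistic was 8.21, and 5.01 for *Ppp1r2-201*, whose statistic was 12.1. Counts at an unadjusted p under 0.05 were 10 of the 17 transcripts by the likelihood ratio test, beside 34% of all transcripts, and 5 by the Wald test, beside 26.7%.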
